A study of Mus musculus with 16 samples.

Results

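Interferon response genes are the genes that cells switch on after an interferon signal, and 38 of them were followed here across mammary tumours and normal mammary gland of mice. A gene was measured by the probe sets, the groups of short array sequences, that the array's annotation gives to that gene alone. By this rule 33 of the 38 genes had a value and 1 (Isg15) had only a probe set that it shares with another gene. The other 4 (Ddx58, Dtx3l, Ifi44 and Xaf1) had no probe set under these symbols in the annotation. For the 8 genes with several probe sets the one with the highest mean was used. All 33 genes passed the filter on dim signals, a signal above 35.4 on at least 3 arrays, and they stand among 9252 genes tested. Of the 33, 30 were above this level on all 3 glands and Oas3 on 1 gland. Oasl1 and Mx2 were above it on 0 glands and entered the test only through the tumours, where they are high.

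RNA of 1 tissue was measured on each of 16 arrays, and all mice had the FVB/N background. The groups were 3 normal mammary glands with no transgene named, 7 mammary tumours from mice with a transgene for constitutively active STAT5 (STAT5ca), and 6 mammary tumours from mice with a transgene for C-terminally truncated STAT5 (STAT5Δ750). STAT5 acts downstream of the prolactin receptor and drives milk protein genes in mammary epithelium. The labels give neither the promoter that drives the transgenes nor the age or reproductive state of the mice, and do not say whether tumours of 1 group came from separate mice, so p-values measure the spread between these samples. Levels are MAS5 signals, a measure of array brightness, after scaling every array to a median of 75.9, and changes are differences of log2(signal + 8). In such bulk tissue, fewer cells of a type and less RNA per cell cannot be told apart.

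Array STAT5ca_177 stood apart from the other tumours. Krt8, a keratin of luminal epithelium that checks the labelled tissue, read 33.5 on it, against 4020.1 to 6182 on the other 6 STAT5ca tumours and 3724 to 5548 in STAT5Δ750 tumours. Its general leukocyte and macrophage marker means, 12.46 and 11.92 on the log2 scale, were the highest of all 16 arrays, and its luminal mean of 6.49 the lowest. Calls that change without it are given both ways beside the gene or list. On this array Oas2, Ifit1, Mx2, Rsad2 and Rtp4 were the lowest of the 13 tumours, while Irf1, Ifitm3, Parp14 and Trim30a were the highest. These are 5 and 4 of the 33 genes, while the array was the lowest for 15.7% and the highest for 22.9% of all genes. Neither share of the 33 genes exceeded that of all genes.

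Interferons are secreted proteins that warn cells of infection. Type I interferon binds the receptor made of IFNAR1 and IFNAR2, and the kinases JAK1 and TYK2 then start a signal that ends in a complex with STAT2 and IRF9, which binds the interferon-stimulated response element of target genes. Interferon gamma binds IFNGR1 and IFNGR2 and signals through JAK1 and JAK2. The targets include sensors of viral RNA and DNA, enzymes that degrade RNA, proteins that block viral entry or budding, and GTPases that attack vacuoles of intracellular parasites.

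Most of these genes had higher average signals in both tumour types than in gland, but the tumours differed widely among themselves and few genes passed the test. In STAT5ca tumours 28 of 33 genes had a log2 change above 0, as had 63.3% of all genes tested, with a median of 1.01 beside 0.25 for all genes tested. In STAT5Δ750 tumours 27 of 33 did, as did 54.1% of all genes, with a median of 0.87 beside 0.08. Under the deposited scaling these counts were 27 and 26, and the medians 0.74 and 0.76 beside -0.02 and -0.04 for all genes. All these counts and medians include Oasl1 and Mx2, which entered the test only through the tumours. Their changes above 0 follow from that entry and add no evidence.

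By limma with Benjamini-Hochberg adjustment over all genes tested, 5 of 33 genes rose in STAT5ca tumours (Ifi35, Bst2, Oas1a, Oasl1 and Ifih1) and 0 fell. That is 15.2% of the members, beside 23.2% of all genes called in either direction, 13.9% called higher and 9.37% called lower, and the share of members called higher was near the background. In STAT5Δ750 tumours 2 of 33 rose (Oasl1 and Ifi35) and 0 fell, which is 6.06%, beside 19.7% of all genes called, 9.3% higher and 10.4% lower. At an unadjusted p under 0.05, 13 and 9 of the 33 genes passed, against 36.7% and 33.5% of all genes. Oasl1 is among both the 13 and the 9, and Mx2 is among the 9. Leaving out Oasl1, the counts of genes that rose by adjusted p are 4 and 1. The 2 comparisons share the 3 glands and are not independent of each other.

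These counts rest on few arrays. Without gland 1, 4 or 6 the count in STAT5ca tumours was 1, 0 or 1, and in STAT5Δ750 tumours it was 0 each time. Without STAT5ca_177, 11 genes rose in STAT5ca tumours, among them Oasl1 and Mx2, and 4 in STAT5Δ750 tumours, among them Oasl1. Without STAT5Δ750_178 the count in STAT5Δ750 tumours was 6, again with Oasl1 and Mx2, which entered the test only through the tumours. Without STAT5Δ750_92 or STAT5Δ750_165 it was 0, and without STAT5ca_124, STAT5ca_159, STAT5ca_171 or STAT5Δ750_160 it was 1. The share of all genes called was not counted in these refits, so the counts have no background beside them. Under the deposited scaling the counts were 1 and 1, under quantile normalization 3 and 1, and 1 and 2 when the model held the 3'/5' ratio of the beta-actin control, a measure that rises as RNA degrades. This ratio was 1.07 to 1.25 on the glands and 1.27 to 5.38 on the tumours, so that every tumour lay above every gland.

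**Figure D1:**
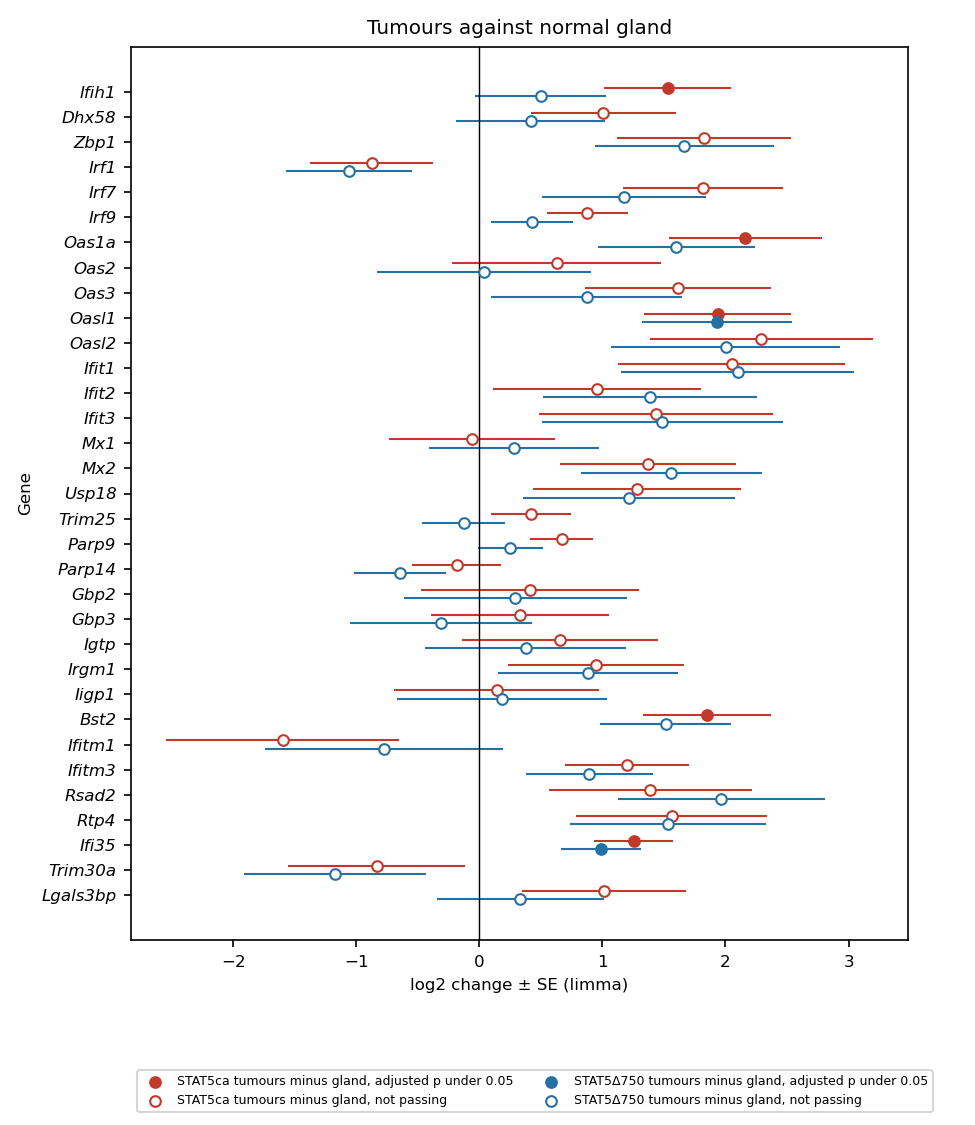
Log2 change of each of the 33 genes in STAT5ca tumours (red) and STAT5Δ750 tumours (blue) against the 3 glands, with the SE of limma as bars; filled points have an adjusted p under 0.05. The 5 filled red points are Ifih1, Oas1a, Oasl1, Bst2 and Ifi35 and the 2 filled blue points Oasl1 and Ifi35, while Irf1, Ifitm1, Trim30a and Parp14 lie below 0 for both tumour types.

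The 2 tumour types were also compared with each other, which asks whether active and truncated STAT5 differ in these genes. No gene of the 33 passed by limma, nor did any of the 9252 tested (0% called in either direction, 0% higher and 0% lower). At an unadjusted p under 0.05, 1 of 33 genes passed, Ifih1, with a log2 difference of 1.03 ± 0.42 (SE, 7 STAT5ca against 6 STAT5Δ750 tumours) and adjusted p = 0.589, against 8.25% of all genes. The other differences ran from -0.83 for Ifitm1 to 0.74 for Oas3, with a median of 0.28 over the 33 genes beside 0.15 for all genes. With a median SE of 0.575 for these genes, against 0.278 for all genes, sizeable differences between the tumour types could be missed here.

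The tumours differed widely among themselves in these genes. From the lowest to the highest of the 13 tumour arrays, the signal plus 8 varied by a median of 14.5-fold over the 33 genes, against 3.74-fold over all genes tested, and 25 of the 33, or 75.8%, varied more than 8-fold, against 23.4% of all genes. Among the 3 glands the median range was 1.36-fold, close to the 1.39-fold of all genes. The SD of the log2 signal had a median of 0.238 in gland, 1.16 in STAT5ca and 1.23 in STAT5Δ750 tumours, beside 0.248, 0.584 and 0.428 for all genes. The SD was among the highest 10% of all genes for 5 of the 33 genes in gland, 7 in STAT5ca and 20 in STAT5Δ750 tumours.

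The high and low values fell on a few arrays. Array STAT5ca_169 was the highest of the 13 tumours for 17 of 33 genes and STAT5Δ750_160 for 7, while each was the highest for 8.74% and 4.8% of all genes. The lowest array was STAT5Δ750_178 for 23 of 33 genes, and for 10.5% of all genes. On STAT5ca_169 and on STAT5Δ750_160, 31 of the 33 genes lay above all 3 glands, but on STAT5Δ750_178 only 3 did and 23 lay below all 3 glands. Of all genes 45.8%, 43.4% and 40.8% lay above all glands on these 3 arrays. The median difference from the gland mean was 2.60 on STAT5ca_169, 2.29 on STAT5Δ750_160 and -0.73 on STAT5Δ750_178, while for all genes it was 0.13, 0.06 and 0.003. Each tumour type therefore held an array with high values, and the lowest array was a STAT5Δ750 tumour.

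**Figure D2:**
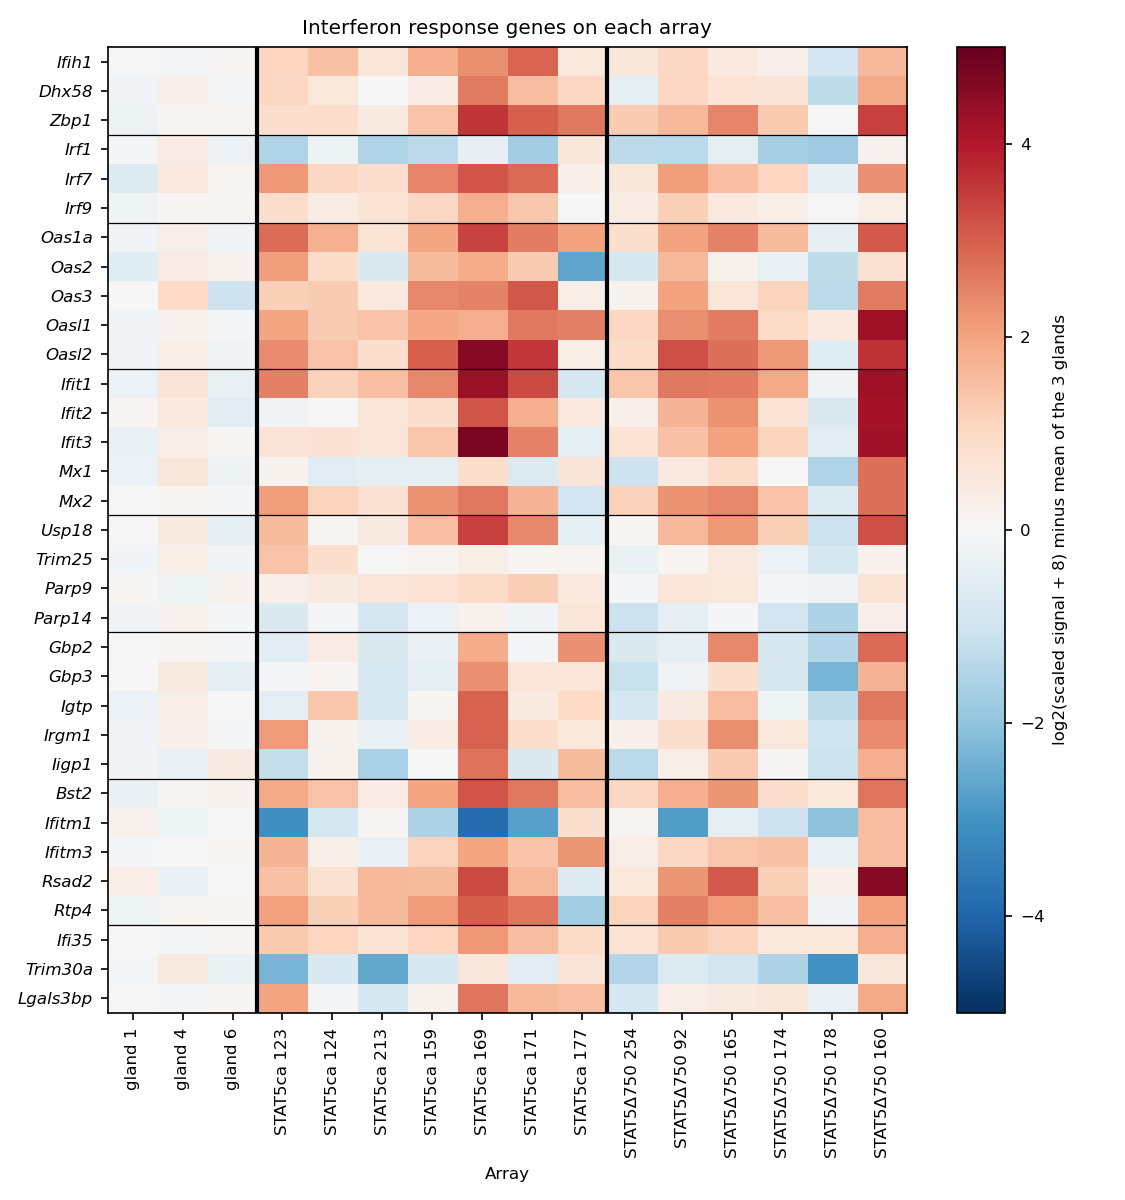
Difference of log2(scaled signal + 8) from the mean of the 3 glands for the 33 genes (rows, grouped by role with thin lines) on the 16 arrays (columns, groups divided by thick lines), from blue (lower) to red (higher). The columns of STAT5ca_169 and STAT5Δ750_160 are red for 31 genes that lie above all glands, the column of STAT5Δ750_178 is blue for 23 genes below all glands, and Ifitm1 is lowest on STAT5ca_169.

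The promoters of 4 genes are shown because they hold matches to the core of the interferon-stimulated response element. Sequences are from RefSeq on build GRCm38.p6, from 250 bases before to 30 bases after the start of transcription, 5′ to 3′ in the direction of the gene, with each match to the motif, GAAA followed by any 2 bases and GAAA again, on either strand in capitals. They are the genes with the most matches among those whose values per array are given, with ties settled by the smallest p of the 3 comparisons. Bst2 lies at chr8:71537443-71537722 on the minus strand, Oas1a at chr5:120907496-120907775 on the minus strand, Ifitm3 at chr7:141010715-141010994 on the minus strand and Ifit1 at chr19:34640639-34640918 on the plus strand.
Bst2: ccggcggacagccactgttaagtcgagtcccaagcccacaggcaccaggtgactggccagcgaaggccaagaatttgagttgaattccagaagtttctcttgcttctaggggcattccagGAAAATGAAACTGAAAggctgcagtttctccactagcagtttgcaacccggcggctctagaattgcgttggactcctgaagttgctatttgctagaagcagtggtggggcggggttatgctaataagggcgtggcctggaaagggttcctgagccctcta
Oas1a: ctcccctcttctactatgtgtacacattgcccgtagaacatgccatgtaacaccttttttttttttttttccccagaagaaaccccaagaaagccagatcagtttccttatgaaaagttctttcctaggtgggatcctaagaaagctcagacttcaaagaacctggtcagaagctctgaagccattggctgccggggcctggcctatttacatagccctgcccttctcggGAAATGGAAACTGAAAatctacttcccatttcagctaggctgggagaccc
Ifitm3: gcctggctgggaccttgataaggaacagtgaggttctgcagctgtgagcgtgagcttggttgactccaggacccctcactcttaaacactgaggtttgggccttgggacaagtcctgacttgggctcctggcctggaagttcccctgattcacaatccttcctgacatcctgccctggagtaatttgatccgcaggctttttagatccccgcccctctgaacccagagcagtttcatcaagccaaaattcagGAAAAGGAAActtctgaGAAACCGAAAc
Ifit1: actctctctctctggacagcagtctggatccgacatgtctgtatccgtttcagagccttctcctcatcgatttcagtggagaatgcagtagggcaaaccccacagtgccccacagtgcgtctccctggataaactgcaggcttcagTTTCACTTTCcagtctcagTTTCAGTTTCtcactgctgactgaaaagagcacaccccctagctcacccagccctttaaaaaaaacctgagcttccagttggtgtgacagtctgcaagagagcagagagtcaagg

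The first match starts 130 bases before the start in Bst2, and the matches start 20 and 14 bases before it in Oas1a, 104 and 85 bases before it in Ifit1, and at bases 3 and 20 after it in Ifitm3. In Bst2 and Oas1a the 2 matches overlap each other. In the window from 250 bases before to 50 after the start, a promoter was found for 23 of the 33 genes, and 13 of these 23 genes, or 56.5%, held the motif, searched on both strands. Of all genes tested with a promoter 3.99% held it, as did 3.44% of all 32851 promoters of the same length. The GTPase genes held it in 4 of 4 genes with a promoter, and the transcription factor genes in 0 of 3.

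The palindrome TTCNNNGAA, the core of the site that STAT5 recognises, was found in 7 of the 23 genes, or 30.4%, against 8.16% of all genes tested and 8.3% of all promoters. In Bst2 and Ifitm3 it overlapped a match to the response element motif. A match is a description of the letters in this window and does not show that a factor binds there.

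Of the 3 sensors tested 1 rose in STAT5ca tumours, Ifih1, which encodes the RNA helicase MDA5. Its signal was 255, 247 and 264 on glands 1, 4 and 6, from 370.4 to 1947 with a median of 714 in STAT5ca tumours, and from 127 to 794 with a median of 375 in STAT5Δ750 tumours. All 7 STAT5ca tumours lay above the glands, as did 5 of 6 STAT5Δ750 tumours, and STAT5Δ750_178 lay below them. The change was 1.53 ± 0.52 (log2 ± SE, 7 tumours against 3 glands) with adjusted p = 0.0431, and in 16 of 27 alternative settings it did not pass, with adjusted p up to 0.149. In STAT5Δ750 tumours it was 0.50 ± 0.53, adjusted p = 0.538.

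Zbp1 encodes a sensor of Z-form nucleic acid that can trigger necroptosis. Its signal was 59, 80.2 and 80.4 on the glands, 101 to 963 with a median of 209.8 in STAT5ca tumours and 71.4 to 858 with a median of 212.7 in STAT5Δ750 tumours. All 7 STAT5ca tumours and 5 STAT5Δ750 tumours lay above the glands, yet the changes of 1.82 ± 0.71 and 1.67 ± 0.73 did not pass, with adjusted p = 0.0743 and 0.119. Dhx58, which encodes the regulatory helicase LGP2, gave 57.1, 77.9 and 59.4 on the glands, 63 to 429 with a median of 138 and 22.1 to 259 with a median of 107. Its groups overlapped, and its changes of 1.01 ± 0.59 and 0.42 ± 0.60 did not pass. The highest tumour for Zbp1 and Dhx58 was STAT5ca_169, and for Ifih1 it was STAT5ca_171.

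Of the 3 transcription factors 0 passed by limma in either tumour type, with 2 and 0 at an unadjusted p under 0.05. Irf7, the factor that amplifies type I interferon production, gave 101, 229 and 180.0 on the glands, 196 to 1512 with a median of 752 in STAT5ca tumours and 113 to 824 with a median of 410.3 in STAT5Δ750 tumours. On 6 of 7 STAT5ca tumours it was above all glands, the exception being STAT5ca_177. The change was 1.81 ± 0.65, adjusted p = 0.0543, and it passed without STAT5ca_177 at 2.07 with adjusted p = 0.0161. In STAT5Δ750 tumours the change was 1.17 ± 0.67, adjusted p = 0.231.

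Irf9 encodes the DNA-binding partner of STAT2. Its signal was 282, 345 and 353 on the glands, 333 to 1149.7 with a median of 600.1 and 326 to 743 with a median of 406, with changes of 0.88 ± 0.33 (adjusted p = 0.0644) and 0.43 ± 0.34 (adjusted p = 0.396). Without STAT5ca_177 the first change was 1.02 and passed, with adjusted p = 0.0167. Irf1, a factor that responds strongly to interferon gamma, gave 886, 1278 and 780.2 on the glands, 285 to 1435 with a median of 384 in STAT5ca tumours and 265 to 1120.0 with a median of 379.9 in STAT5Δ750 tumours. It lay below all glands on 5 of 7 and 5 of 6 tumours, and above them on STAT5ca_177, with changes of -0.87 ± 0.50 (adjusted p = 0.219) and -1.06 ± 0.51 (adjusted p = 0.161). Without STAT5ca_177 and under the deposited scaling, Irf1 passed in STAT5ca tumours at -1.37 with adjusted p = 0.0257.

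The oligoadenylate synthetase family held 2 of the 5 genes that rose in STAT5ca tumours. Members of the family that are active synthetases make the messenger that activates the nuclease RNase L. Oas1a gave 169.4, 223 and 170.0 on the glands, 303 to 2001 with a median of 767 in STAT5ca tumours and 137 to 1639 with a median of 677 in STAT5Δ750 tumours. All 7 STAT5ca tumours lay above the glands, and of the STAT5Δ750 tumours 5 did and STAT5Δ750_178 lay below. The changes were 2.16 ± 0.62 (adjusted p = 0.0201) and 1.60 ± 0.64 (adjusted p = 0.0893). The first did not pass without gland 1, 4 or 6 or once the actin ratio was a covariate, with adjusted p up to 0.103, and the second passed without STAT5Δ750_178 at 2.00 with adjusted p = 0.0182.

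Oasl1, a relative that restrains translation of Irf7 mRNA, rose in both tumour types, as did Ifi35. It gave 25.6, 33.5 and 26.9 on the glands, 78.9 to 222 with a median of 129.8 in STAT5ca tumours and 43.7 to 674 with a median of 121 in STAT5Δ750 tumours, and all 13 tumours lay above the glands. The changes were 1.94 ± 0.60 (adjusted p = 0.0284) and 1.93 ± 0.61 (adjusted p = 0.0361). Its gland signals lie under the filter level, so the gene was tested only because the tumours are high, and the change moved with the offset of 8: with an offset of 35 it was 1.40 and 1.45, with adjusted p = 0.0539 and 0.0583. Both calls were lost without gland 1, 4 or 6, the first also under the deposited scaling or with the actin covariate, and the second also without STAT5Δ750_92 or STAT5Δ750_165, with adjusted p up to 0.126.

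Oasl2 had the largest change of the 33 genes in STAT5ca tumours but did not pass. Its signal was 80.2, 114 and 82.2 on the glands, 113 to 2334 with a median of 505 in STAT5ca tumours and 56.4 to 1205 with a median of 546 in STAT5Δ750 tumours. The changes were 2.29 ± 0.91 (adjusted p = 0.0794) and 2.00 ± 0.93 (adjusted p = 0.143), and the range over tumours was 36.4-fold. Without STAT5ca_177, where it read 113, the first was 2.62 with adjusted p = 0.0293. Oas2 and Oas3, at 0.63 ± 0.85 and 1.61 ± 0.76 in STAT5ca and 0.04 ± 0.87 and 0.87 ± 0.78 in STAT5Δ750 tumours, did not pass.

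The IFIT proteins bind viral RNA and the Mx proteins are dynamin-like GTPases that block viral ribonucleoproteins. Of the 5 genes 0 passed by limma in either tumour type, with 1 and 2 at an unadjusted p under 0.05, although Ifit1 had the largest change of the 33 genes in STAT5Δ750 tumours. Ifit1 gave 56.3, 112 and 53 on the glands, 35.8 to 1555 with a median of 405 in STAT5ca tumours and 61.7 to 1466 with a median of 369.6 in STAT5Δ750 tumours. It lay above all glands on 6 of 7 and 5 of 6 tumours, and was lowest on STAT5ca_177 and highest on STAT5ca_169. The changes were 2.05 ± 0.92 (adjusted p = 0.119) and 2.10 ± 0.95 (adjusted p = 0.131), and without STAT5ca_177 the first was 2.53 with adjusted p = 0.0217.

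Mx2 gave 23.1, 26.2 and 21.8 on the glands, 8.35 to 189.8 with a median of 95 in STAT5ca tumours and 12.4 to 207 with a median of 109 in STAT5Δ750 tumours. It was above all glands on 6 and 5 tumours and below them on STAT5ca_177 and STAT5Δ750_178, and the changes of 1.37 ± 0.72 and 1.56 ± 0.73 had adjusted p = 0.179 and 0.149. With glands under the filter level, Mx2 too was tested only because the tumours are high. The changes passed at 1.76 without STAT5ca_177 (adjusted p = 0.034) and at 2.00 without STAT5Δ750_178 (adjusted p = 0.0415). Ifit2 gave 76.2, 101 and 45 on the glands, 61.5 to 687 with a median of 113 and 39.6 to 1397 with a median of 184, with changes of 0.95 ± 0.85 and 1.39 ± 0.87. Ifit3 stood at 1.43 ± 0.95 and 1.49 ± 0.98, and reached 2094 on STAT5ca_169 and 1493 on STAT5Δ750_160. Mx1 stood at -0.06 ± 0.67 and 0.28 ± 0.69, with 755 on STAT5Δ750_160 and 196 or less on the STAT5ca tumours.

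ISG15 is a ubiquitin-like protein that is attached to other proteins by enzymes such as TRIM25 and removed by USP18, and PARP9 and PARP14 transfer ADP-ribose. Of the 4 genes of this group with a value 0 passed by limma, with 1 and 0 at an unadjusted p under 0.05. Parp9 gave 622, 509 and 674 on the glands, 705 to 1416 with a median of 916 in STAT5ca tumours and 526.1 to 956 with a median of 719 in STAT5Δ750 tumours. All 7 STAT5ca tumours lay above the glands, by a change of 0.67 ± 0.26 (adjusted p = 0.0696), while in STAT5Δ750 tumours the change was 0.25 ± 0.26. Parp14 gave 386, 479 and 399 on the glands, 232 to 634 with a median of 367 and 139.8 to 498 with a median of 257, and its changes were -0.18 ± 0.36 and -0.65 ± 0.37.

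Usp18, whose protein also dampens the type I receptor, had higher averages in both tumour types with a wide spread. It stood at 1.28 ± 0.84 and 1.22 ± 0.86, with 1866 on STAT5ca_169, 1663 on STAT5Δ750_160 and 77.1 on STAT5Δ750_178. Trim25 gave 858, 1129 and 837 on the glands, 937 to 2510.2 with a median of 1022 in STAT5ca tumours and 504 to 1312 with a median of 873 in STAT5Δ750 tumours. Its changes were 0.42 ± 0.33 and -0.13 ± 0.33, and its highest tumour was STAT5ca_123, which differs from most genes of the set. The 2 probe sets of Trim25 that were not used gave 0.38 and 0.51 in STAT5ca and 0.01 and 0.88 in STAT5Δ750 tumours, so its probe sets disagree in sign in STAT5Δ750 tumours.

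The 5 interferon-induced GTPases, typical targets of interferon gamma, differed widely between arrays. Of them 0 passed by limma and 0 had an unadjusted p under 0.05 in either tumour type, and their medians were 0.41 in STAT5ca and 0.29 in STAT5Δ750 tumours. Irgm1, which acts on vacuoles and autophagy, gave 239, 329 and 256 on the glands, 214 to 2128 with a median of 393 in STAT5ca tumours and 132 to 1419 with a median of 449 in STAT5Δ750 tumours, with changes of 0.95 ± 0.71 and 0.88 ± 0.73. Igtp, a GTPase of the same family, gave 429, 639.6 and 521 on the glands, 303 to 4049.9 with a median of 717 and 212 to 3313 with a median of 585, with changes of 0.65 ± 0.80 and 0.38 ± 0.82. Both genes were highest on STAT5ca_169 and lowest on STAT5Δ750_178, with glands inside the range of the tumours.

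Gbp2 and Gbp3 encode guanylate-binding proteins that coat pathogen vacuoles. Gbp3 gave 280.3, 389 and 203 on the glands, 164 to 1409 with a median of 298 in STAT5ca tumours and 49.4 to 937 with a median of 202 in STAT5Δ750 tumours, with changes of 0.33 ± 0.72 and -0.31 ± 0.74. Gbp2 gave 537, 569.8 and 504 on the glands, and 1964 on STAT5ca_169, 2664 on STAT5ca_177, 2897 on STAT5Δ750_165 and 3840.2 on STAT5Δ750_160. Its lowest values were 189 on STAT5Δ750_178 and 318 on STAT5ca_213, and 3 STAT5ca and 2 STAT5Δ750 tumours lay above the glands and 3 and 4 below. Its changes were 0.41 ± 0.88 and 0.29 ± 0.91. Iigp1, which encodes an immunity-related GTPase, stood at 0.14 ± 0.83 and 0.19 ± 0.85, with 3155 on STAT5ca_169 and 1434 on STAT5ca_177. Its unused probe set gave -0.09 in STAT5Δ750 tumours. The guanylate-binding and IFIT genes have close relatives, and how far probe sets tell them apart was not tested.

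Among the membrane and lipid effectors, Bst2 rose in STAT5ca tumours. It encodes tetherin, which holds budding viruses at the cell surface. Its signal was 201, 277 and 294 on the glands, 334 to 2279 with a median of 977 in STAT5ca tumours and 366 to 1653 with a median of 722 in STAT5Δ750 tumours, so that all 13 tumours lay above the glands. The changes were 1.85 ± 0.52 (adjusted p = 0.018) and 1.51 ± 0.53 (adjusted p = 0.0578). The first did not pass without gland 1, 4 or 6, under the deposited scaling or under quantile normalization, with adjusted p up to 0.0936, and the second passed in 6 of 27 alternative settings, among them without STAT5ca_177 (adjusted p = 0.0497) and without STAT5Δ750_178 (adjusted p = 0.0364).

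Rsad2 encodes viperin, an enzyme that makes a chain-terminating nucleotide. It gave 132, 81.7 and 103 on the glands, 64.5 to 1082 with a median of 328 in STAT5ca tumours and 123.8 to 2617 with a median of 381 in STAT5Δ750 tumours, with changes of 1.39 ± 0.82 (adjusted p = 0.234) and 1.97 ± 0.84 (adjusted p = 0.113). Rtp4, a chaperone of membrane receptors, stood at 1.56 ± 0.78 (adjusted p = 0.157) and 1.53 ± 0.80 (adjusted p = 0.19). It read 291, 376 and 364 on the glands, 97.4 on STAT5ca_177 and at most 2823 on the other STAT5ca tumours, with a median of 1446 over all 7. In STAT5Δ750 tumours Rtp4 ran from 306 to 1987 with a median of 1227. Without STAT5ca_177 its change in STAT5ca tumours was 2.11, with adjusted p = 0.00448, and in STAT5Δ750 tumours it then also passed, with adjusted p = 0.0321.

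The 2 IFITM genes, whose proteins block fusion of viruses with the cell, had averages on opposite sides of gland and did not pass. Ifitm3 gave 1620.0, 1668 and 1767 on the glands, 1332 to 7747 with a median of 4537 in STAT5ca tumours and 1314 to 4896 with a median of 3922 in STAT5Δ750 tumours, with changes of 1.20 ± 0.50 (adjusted p = 0.0981) and 0.89 ± 0.52 (adjusted p = 0.24). Ifitm1 gave 382, 280.4 and 318 on the glands, 15.2 to 569 with a median of 105 in STAT5ca tumours and 39.8 to 961 with a median of 194 in STAT5Δ750 tumours. It had the widest range of the 33 genes, 41.8-fold, was the lowest of all tumours on STAT5ca_169 and the highest on STAT5Δ750_160, the arrays on which most other genes were high. Its changes were -1.60 ± 0.95 (adjusted p = 0.234) and -0.77 ± 0.97 (adjusted p = 0.612).

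The remaining genes include Ifi35, which had the smallest adjusted p of the set in STAT5ca tumours. It encodes a cytoplasmic leucine zipper protein, and gave 194, 184 and 210.4 on the glands, 324 to 909.8 with a median of 425 in STAT5ca tumours and 283 to 708 with a median of 376 in STAT5Δ750 tumours. All 13 tumours lay above the glands, with changes of 1.25 ± 0.32 (adjusted p = 0.0103) and 0.99 ± 0.33 (adjusted p = 0.044). The first kept its call in 24 of 27 alternative settings and was lost without gland 4 (adjusted p = 0.055), under the deposited scaling (0.0588) and with the actin covariate (0.0603). The second was lost in 14 of 27, among them without any 1 gland, with adjusted p up to 0.156.

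Lgals3bp, which encodes a secreted galectin-binding glycoprotein, gave 463, 433 and 489.9 on the glands, 248 to 2981 with a median of 1329 in STAT5ca tumours and 246 to 1729 with a median of 612 in STAT5Δ750 tumours. Its changes of 1.01 ± 0.66 and 0.33 ± 0.68 did not pass. Trim30a, a TRIM protein that restrains inflammatory signalling, gave 448, 657 and 374 on the glands, 73.7 to 749 with a median of 279.7 in STAT5ca tumours and 52.2 to 712 with a median of 210.3 in STAT5Δ750 tumours. It lay below all glands on 5 of 7 and 5 of 6 tumours, with changes of -0.83 ± 0.72 and -1.17 ± 0.74 that did not pass.

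Groups that did not overlap were counted across the set as well. In STAT5ca tumours 7 of 33 genes, Ifih1, Zbp1, Oas1a, Oasl1, Parp9, Bst2 and Ifi35, lay above all glands on every tumour, or 6 without Oasl1, against 14.5% of all genes, and 0 lay below, against 8.04%. In STAT5Δ750 tumours 3 did, Oasl1, Bst2 and Ifi35, or only Bst2 and Ifi35 without Oasl1, against 18.5% of all genes. There 0 lay below, against 14.8%. Between the tumour types 0 of 33 genes were fully higher, against 0.151% of all genes, and 0 fully lower, against 0%.

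**Figure D3:**
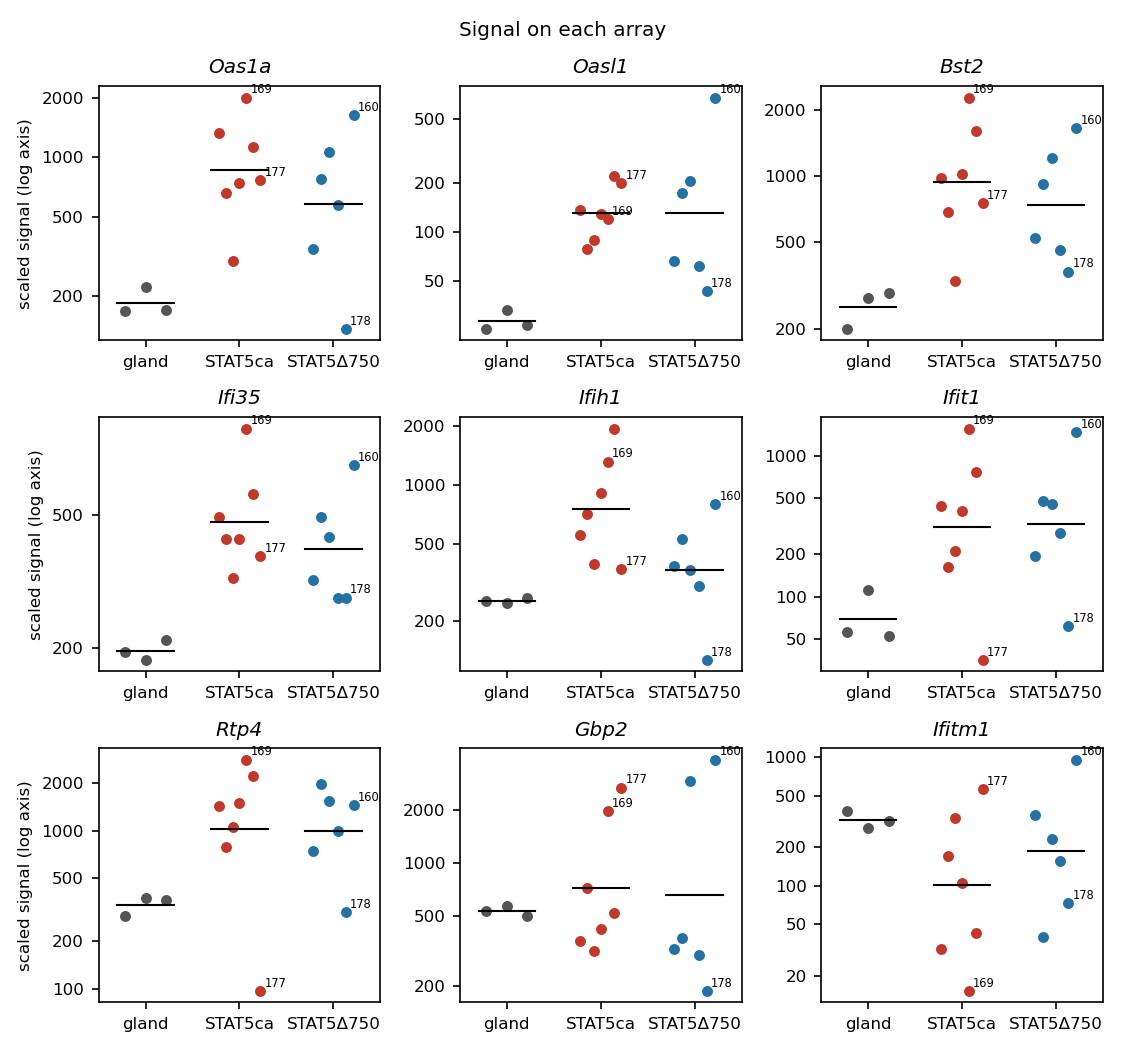
Scaled signal (log axis) of 9 genes on the 3 glands (grey), 7 STAT5ca tumours (red) and 6 STAT5Δ750 tumours (blue), each point 1 array, the line at the mean of log2(signal + 8), and 4 arrays numbered. All tumours lie above the glands for Oasl1, Bst2 and Ifi35, STAT5ca_177 lies lowest for Ifit1 at 35.8 and Rtp4 at 97.4 but high for Gbp2 at 2664, and Ifitm1 is lowest on STAT5ca_169 at 15.2.

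Of 8 receptor, kinase and STAT genes tested, 0 rose, while 1 passed as lower in STAT5ca tumours and 2 in STAT5Δ750 tumours. Among all genes tested 9.37% and 10.4% were called lower, and 13.9% and 9.3% higher. The medians of the 8 genes were -0.17 and -0.71, beside 0.25 and 0.08 for all genes. Without STAT5ca_177 the counts were 2 and 3 lower, the added gene being Ifngr1. Jak1, the kinase that both receptors share, gave 833, 1040.1 and 679.6 on the glands and had changes of -0.83 ± 0.25 (adjusted p = 0.0244) and -1.22 ± 0.25 (adjusted p = 0.0036). Jak2, the partner kinase at the interferon gamma receptor, fell in STAT5Δ750 tumours, at -0.93 ± 0.31 (adjusted p = 0.0422) and stood at -0.45 ± 0.30 in STAT5ca tumours. The type I receptor genes Ifnar1 and Ifnar2 stood at 0.09 ± 0.41 and 0.46 ± 0.45 in STAT5ca and -0.49 ± 0.42 and 0.02 ± 0.46 in STAT5Δ750 tumours. The interferon gamma receptor genes Ifngr1 and Ifngr2 stood at -0.43 ± 0.40 and 0.12 ± 0.56 in STAT5ca and -0.99 ± 0.41 and 0.23 ± 0.57 in STAT5Δ750 tumours. Without STAT5ca_177, Ifngr1 passed at -0.71 in STAT5ca tumours (adjusted p = 0.043) and at -0.99 in STAT5Δ750 tumours (adjusted p = 0.00979). Stat2 stood at 0.36 ± 0.47 and 0.46 ± 0.48.

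Of 10 genes that lead to interferon production, 1 rose in STAT5ca tumours and 2 fell in STAT5Δ750 tumours. Among all genes 13.9% were called higher in STAT5ca and 10.4% lower in STAT5Δ750 tumours. Tlr3, the endosomal receptor of double-stranded RNA, rose by 1.24 ± 0.41 (adjusted p = 0.0391) and stood at 1.18 ± 0.42 (adjusted p = 0.0584). Irf8, a factor of myeloid and B cells, and Irf2, which opposes Irf1, fell in STAT5Δ750 tumours, at -2.96 ± 0.89 and -1.36 ± 0.41 (adjusted p = 0.0287 and 0.0299). In STAT5ca tumours they stood at -2.34 ± 0.87 (adjusted p = 0.0634) and -0.77 ± 0.40 (adjusted p = 0.181). Irf8 read 748 to 1238 on the glands, 2578 on STAT5ca_177 and 66.6 to 392.4 on the other 6 STAT5ca tumours. Without STAT5ca_177 both passed in STAT5ca tumours, at -2.96 and -1.05 (adjusted p = 0.000968 and 0.00726), and of the 10 genes 1 was then called higher and 4 lower in each tumour type. Of 9 interferon ligand genes with a probe set, 1 passed the filter, Ifnz, at 0.14 and 0.04. Of 6 feedback inhibitors 0 passed by limma, 1 in each tumour type had an unadjusted p under 0.05, and Socs1 stood at -0.96 ± 0.53 and -0.10 ± 0.54. Without STAT5ca_177, 1 of the 6, the phosphatase gene Ptpn6, was called lower in both tumour types.

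Of 25 further interferon targets outside the 33, 0 passed in STAT5ca tumours by limma, against 23.2% of all genes. Unadjusted p was under 0.05 for 2 of them, and the median was -0.06, beside 0.25 for all genes tested. In STAT5Δ750 tumours 1 of the 25 rose and 1 fell, against 9.3% and 10.4% of all genes, with a median of -0.24 beside 0.08. The gene that rose was Isg20, an exonuclease of RNA, at 1.62 ± 0.51 (adjusted p = 0.0351), and the gene that fell was Sp100, a nuclear body protein, at -1.57 ± 0.38 (adjusted p = 0.00876). Without STAT5ca_177, 24 of these genes were tested, with 0 called in STAT5ca tumours and the same counts, 1 higher and 1 lower, in STAT5Δ750 tumours. These lists were drawn up with earlier results of these arrays known.

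Leukocytes respond to interferon and their markers were measured on the same arrays. Of 11 T and NK cell markers, 10 were called lower in STAT5ca tumours, or all 11 without STAT5ca_177, and all 11 in STAT5Δ750 tumours either way. Their mean log2 signal was 7.86 to 8.50 on glands, 3.80 to 6.56 in STAT5ca and 3.87 to 6.63 in STAT5Δ750 tumours. Of 5 general leukocyte markers 1 and 2 were called lower, and all 5 in both tumour types without STAT5ca_177, with means of 10.75 to 11.45 on glands, 7.62 to 12.46 and 7.43 to 10.05. Of 11 macrophage and monocyte markers 1 was called higher in STAT5ca tumours and 0 passed in STAT5Δ750 tumours, while without STAT5ca_177 1 was higher and 3 lower, and 1 higher and 2 lower. Of 6 B and plasma cell markers 6 and 5 were called lower. For plasmacytoid dendritic cells, the main makers of type I interferon, 5 markers were listed and 3 tested: Ly6d, Spib and Tcf4. The 2 called lower in each tumour type were Spib and Tcf4. Siglech and Ccr9 were listed but not tested, and whether these calls reflect such cells was not tested. Cd3e, the T cell receptor subunit, read 122 to 375 on glands and 2.83 to 104 in STAT5ca tumours.

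Markers of other cell types also differed between tumours and gland, and the shares of all genes given for the leukocyte markers apply to them too. All 4 adipocyte markers were called lower in both tumour types, with median changes of -4.41 and -4.55, as were all 5 skeletal muscle markers, at -6.53 and -5.75, and 4 of 5 endothelial markers, at -2.14 and -1.67. Of 5 luminal epithelial markers 1 was called higher in each tumour type, with medians of 1.16 and 1.496, and 4 in each without STAT5ca_177. The part of these shifts in the changes of the 33 genes between tumours and gland was not tested.

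On the 2 arrays with the highest mean of the 33 genes the general leukocyte mean was 8.22 on STAT5ca_169 and 9.23 on STAT5Δ750_160. On STAT5Δ750_178, the array with the lowest mean of the 33 genes, it was 7.43. Over the tumours other than STAT5ca_177, these 3 arrays included, it ran from 7.43 to 10.05, and STAT5Δ750_178 set the low end. The macrophage mean was 8.52, 9.52 and 8.19 on these 3 arrays. It ran from 8.07 to 9.52 over the tumours other than STAT5ca_177, these 3 included. STAT5Δ750_160 was at the high end, level with STAT5ca_171, also at 9.52. The beta-actin 3'/5' ratio was 2.54, 1.98 and 1.33 on STAT5ca_169, STAT5Δ750_160 and STAT5Δ750_178. Over all tumours, these 3 included, it ran from 1.27 to 5.38. STAT5Δ750_178 also had the highest skeletal muscle mean of the tumours, 10.20, against 12.00 to 12.57 on glands. The part of cell makeup and RNA quality in the spread was not tested.

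**Figure D4:**
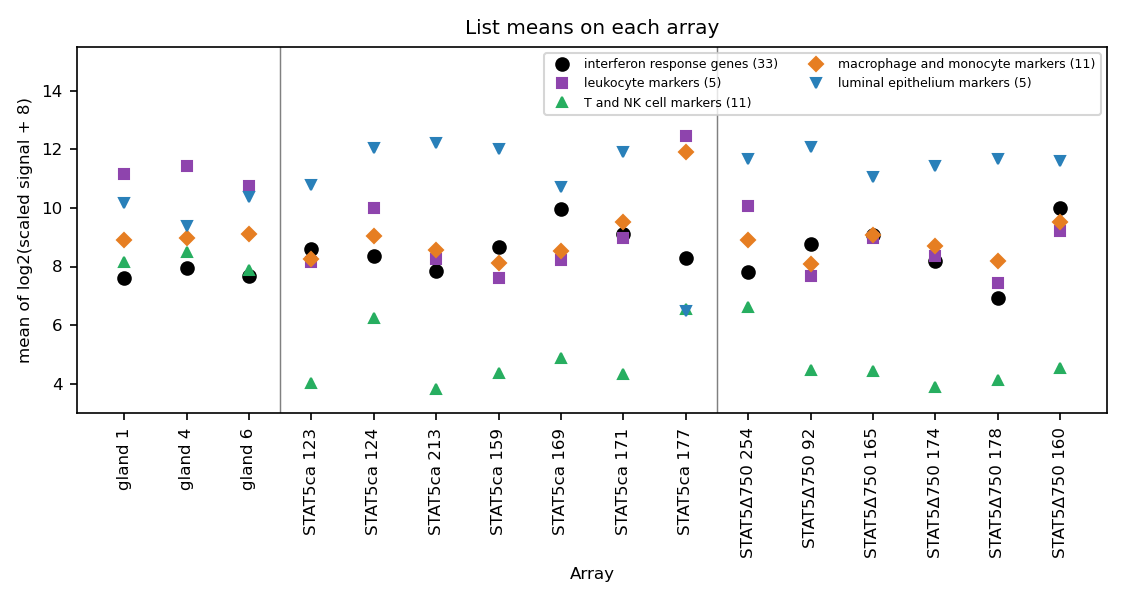
Mean of log2(scaled signal + 8) on each of the 16 arrays for the 33 interferon response genes (black circles) and for markers of leukocytes, T and NK cells, macrophages and monocytes, and luminal epithelium. The interferon genes are highest on STAT5Δ750_160 and on STAT5ca_169, at 9.97, and lowest on STAT5Δ750_178 at 6.94, and the leukocyte markers are highest on STAT5ca_177 at 12.46.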

How the data were processed

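Per the submitters' processing notes the authors made the signals with MAS5, without a version. The deposited values are intensities on a linear scale for 22690 probe sets on each of 16 arrays, and their medians ran from 57.3 to 90.7. Each array was scaled here to a common median of 75.9, and log2(signal + 8) was taken. Probe sets with 1 symbol were used, the one with the highest mean of log2(deposited signal + 8) per gene, and kept if above 35.4, the 40th percentile of all values, on at least 3 arrays. Symbols are those of the platform annotation.

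Limma 3.58.1 in R 4.3.3 was fitted to 9252 genes in 1 model of 3 groups with 13 residual degrees of freedom. P-values are two-sided, adjusted by Benjamini-Hochberg over all genes in each comparison, with a threshold of 0.05. The number of arrays limits the precision. The labels give no batch and no replicate numbers shared between groups. The procedure was tested on simulated data.

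The 38 genes, the roles, the pathway and the marker lists were chosen with earlier results of these data known. Values per array are given for up to 3 genes per role with the smallest p in any comparison, 24 in all, and for flagged genes; values of other members were given where they marked an array and were chosen after seeing them. Pathway genes were named if called in a comparison or listed in the rule, and Ifnar2, Ifngr2 and Ptpn6 were added after their values were seen. Python 3.11.15 with matplotlib 3.10.9 made the figures.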

Additional observations from a re-analysis of the deposited data

Results flagged for a closer look

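In the 66 groups of 7 STAT5ca or 6 STAT5Δ750 tumours tested, 1 signal stood far from the rest of its group by Dixon's test, and chance gives about 1 in 20. Rtp4 read 97.4 on STAT5ca_177, far below the other 6 STAT5ca tumours. Krt8 read 33.5 on the same array, and the part of cell makeup in this value was not tested.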

How the results depend on the processing

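Over 27 alternative settings, 78 of the 99 results for single genes stayed on their side of the threshold, and 0 called genes changed sign. The count of members that passed in STAT5ca tumours, 5 in the text, was 1 under the deposited scaling, 3 under quantile normalization and 1 with the actin covariate, and ran from 0 to 11 when 1 array was left out. In STAT5Δ750 tumours the count, 2 in the text, was 1 under the deposited scaling, with or without STAT5ca_177, 1 under quantile normalization, 1 with an offset of 35 and 1 with no filter, and ran from 0 to 6 when 1 array was left out. Between the tumour types it was 0 in every setting. For the alternative settings the share of all genes called was not counted. The member medians ran from 0.74 to 1.33 in STAT5ca and from 0.52 to 1.08 in STAT5Δ750 tumours. They moved by less than the SD between tumours in every setting, a wide measure that leaving out 1 array could hardly exceed. Between the tumour types the median ran from -0.03, without STAT5Δ750_178, to 0.50, without STAT5Δ750_160. The causes were not tested. The number of arrays, 3 of them glands, limits what these comparisons can detect. The pathway and marker lists were refitted without STAT5ca_177, a choice made after seeing the data. No paired analysis was possible because the labels give the groups no shared replicate number.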

Other observations

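The 25 interferon targets outside the set, among them the exonuclease gene Isg20 and the nuclear body gene Sp100, had a mean log2 signal of 9.20 on STAT5Δ750_160 and 8.87 on STAT5ca_169, the highest of the 13 tumours. On STAT5Δ750_178 it was 6.78, the lowest. On glands it was 7.82 to 8.10, inside the range of the tumours. The mean of the 8 receptor, kinase and STAT genes was 7.51 to 7.98 on all 12 tumours other than STAT5ca_177, below the 8.11 to 8.25 of the glands, and 9.16 on STAT5ca_177.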
